A study of Caenorhabditis elegans with 30 samples.

Results

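The genes described are those of the lysosome whose deposited gene symbol is a vha, asp, cpr, cpl, cpz, lmp or ncr number. On arrays of whole Caenorhabditis elegans, 36 probe sets carried exactly 1 such symbol, out of 28387 probe sets in the tables and 25902 genes named by a probe set with 1 symbol. They fall into 6 aspartyl proteases (asp genes), 9 cysteine proteases (cpl-1 of the cathepsin L type, 6 cpr genes of the cathepsin B type and 2 cpz genes of the cathepsin Z type), 17 subunits or accessory parts of the V-ATPase (vha genes), 2 homologues of the lysosomal membrane glycoprotein LAMP (lmp genes) and 2 homologues of the Niemann-Pick C1 sterol carrier (ncr genes). Every gene had 1 probe set, so none had to be chosen by its level.

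The V-ATPase is a proton pump made of a membrane sector, V0, and a catalytic sector in the cytosol, V1, and it acidifies lysosomes and related organelles. The acid activates cathepsins, the proteases that break down proteins delivered by endocytosis and autophagy, while Niemann-Pick C1 proteins move cholesterol out of the lysosome. C. elegans cannot make sterols and takes them up with its food. Its intestine is rich in lysosome-related granules and digestive proteases, and several V-ATPase subunits also work at the plasma membrane of the intestine, the hypodermis and the excretory cell.

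The series concerns autophagy and the endoplasmic reticulum (ER) stress sensor IRE-1 when membrane lipids are disturbed. Total RNA was hybridised to 30 Affymetrix arrays, 3 in each of 10 groups, and the values are log2 signals after RMA normalisation. All animals were synchronised at the first larval stage, grown with 25 µg/mL carbenicillin and 1 mM IPTG and harvested when most were young adults. N2 wild type animals received pmt-2 RNAi, which lowers an enzyme of the later methylation steps by which phosphoethanolamine becomes the phosphocholine of phosphatidylcholine. Other N2 animals received 25 µg/mL tunicamycin, a blocker of N-glycosylation that disturbs protein folding in the ER, for 4 h in M9 buffer. No buffer step is given for the other groups, so the effects of the drug and of the buffer cannot be told apart. A pmt-2 knockout was a further group, for which the sample titles name the empty vector L4440. The 3 sensors of ER stress are encoded by ire-1, pek-1 and atf-6, and a knockout of each received pmt-2 RNAi or the vector, and N2 on the vector was the common control. The alleles are not given in the labels.

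As a check of the labels, pmt-2 averaged 6.63 ± 0.17 in N2 with RNAi and 4.70 ± 0.18 in the pmt-2 mutant, against 10.14 ± 0.07 in N2 on vector (SD, n = 3 arrays each). RNAi left pmt-2 at 6.74 where atf-6 was deleted, 7.47 where ire-1 was and 7.20 where pek-1 was. The fall of pmt-2 was smaller in the ire-1 mutant than in N2 by 1.33 (SE 0.16, limma adjusted p = 3.55e-06), and this gap belongs beside every result on the ire-1 mutant below. ire-1 averaged 6.19 in its mutant on vector, against 8.66 in N2, and pek-1 averaged 6.74 in its mutant, against 7.59 in N2. atf-6 averaged 7.28 in its mutant, against 7.51 in N2, a difference that did not pass the threshold. The labels do not place the deletions, so a probe set can lie outside them, and the level of atf-6 is no check of that label. The source labels of the N2 RNAi and tunicamycin groups are exchanged relative to titles and characteristics. The titles were used, and of these 2 groups the lower pmt-2 level stands in the one titled for RNAi. In the group titled for tunicamycin, pmt-2 averaged 8.70 ± 0.16. Its difference from N2 on vector was -1.44 (SE 0.11, limma adjusted p = 5.34e-10), and the arrays did not overlap. Array medians lay between 3.74 and 3.89, the mean correlation of an array with the others of its group lay between 0.984 and 0.993, and no 2 arrays were identical. Separate cultures are not stated for the 3 arrays of any group, so the p-values measure the spread between arrays alone.

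Across the groups the 36 genes did not move as 1 block. The count of genes past the threshold (limma, Benjamini-Hochberg adjusted p under 0.05 over all probe sets) was read against the share of all probe sets past it. With pmt-2 RNAi in N2, 7 genes rose and 16 fell, where 33.3% of all probe sets passed (15.6% higher, 17.7% lower). With tunicamycin 4 rose and 21 fell, where 16.6% of all probe sets passed (8.24% higher, 8.37% lower). In the pmt-2 mutant 12 rose and 15 fell, where 59.2% of all probe sets passed (28.4% higher, 30.8% lower). Set directly against RNAi in N2, the mutant was higher for 16 of the genes and lower for 8, where 51.5% of all probe sets passed (27.7% higher, 23.8% lower).

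Bright probe sets pass more often than dim ones, and 24 of the 36 genes had a mean log2 signal of 8 or more. Of the 3175 probe sets at that level, 59.0% passed with RNAi, 29.8% with tunicamycin and 85.1% in the pmt-2 mutant. The 24 bright lysosomal genes passed in 58.3% with RNAi, 83.3% with tunicamycin and 66.7% in the pmt-2 mutant. The share with RNAi was thus near that of bright probe sets, the share with tunicamycin was above it and the share in the pmt-2 mutant was below it. These 3 comparisons share the N2 vector arrays. Exposure was for 4 h with tunicamycin and during growth with RNAi, and the part of that difference was not tested. Because whole animals were used, fewer cells of a type and less RNA per cell cannot be told apart. Tissue markers of the mutant are given below, and whether its animals matched N2 in stage or germline was not tested.

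**Figure D1:**
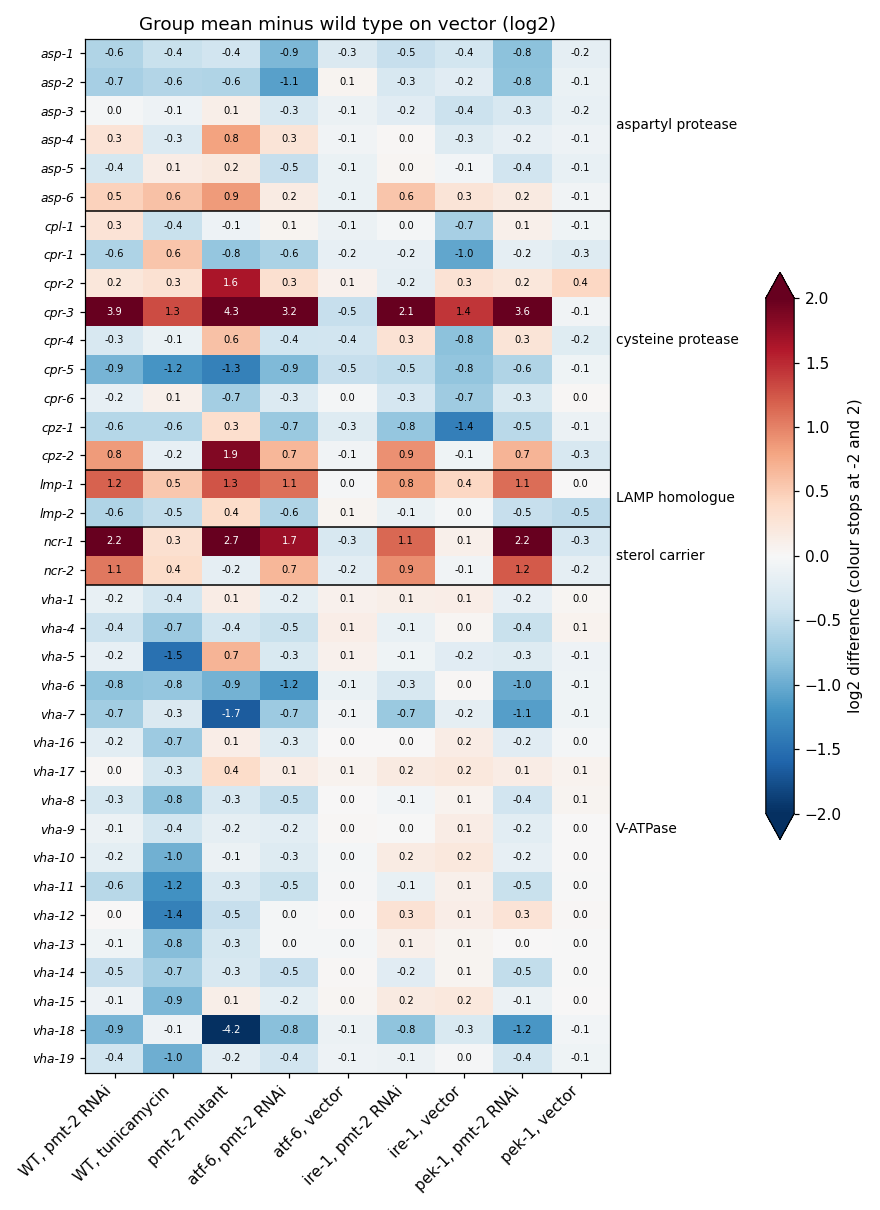
Mean log2 signal of each of the 36 genes in 9 groups minus its mean in wild type (WT) on vector, from 3 arrays per group. Rows are genes ordered by role, columns are groups, red is higher and blue lower than WT on vector. The reddest rows are cpr-3, ncr-1 and lmp-1, the V-ATPase block is blue under tunicamycin, and the columns of the atf-6 and pek-1 mutants on vector are pale.

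Both sterol carriers rose with pmt-2 RNAi in each of the 4 genotypes tested, and only ncr-1 was high in the pmt-2 mutant as well. ncr-1 (chromosome X, 4472259 to 4480091, minus strand, in the tables' own coordinates, for which no build is named in the sources used here) had log2 signals of 8.53, 8.86 and 8.63 in N2 with RNAi, against 6.31, 6.38 and 6.63 in N2 on vector. Its signals in the pmt-2 mutant were 9.16, 8.97 and 9.14. No array of either group overlapped the vector arrays. The rises were 2.23 (SE 0.12, limma adjusted p = 4.1e-13) with RNAi and 2.65 (SE 0.12, limma adjusted p = 5.87e-16) in the mutant.

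With tunicamycin ncr-1 read 6.85, 6.56 and 6.87, a difference of 0.32 (SE 0.12) from vector that did not pass. RNAi raised ncr-1 by 2.03 within the atf-6 mutant and by 2.51 within the pek-1 mutant. Within the ire-1 mutant the rise was 1.05, to 7.56, 7.57 and 7.63 against 6.58, 6.48 and 6.55 on vector. The response in the ire-1 mutant was smaller than in N2 by 1.18 (SE 0.17, limma adjusted p = 4.82e-05), while the vector levels of ncr-1 in the 2 genotypes differed by 0.10 (SE 0.12) without passing.

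ncr-2 (chromosome III, 8258274 to 8265725, plus strand), the second Niemann-Pick C1 homologue, was dim. It read 4.71, 4.94 and 5.03 in N2 with RNAi, against 3.71, 3.80 and 4.00 in N2 on vector. RNAi raised it by 1.05 in N2, 0.88 within the atf-6 mutant, 1.00 within the ire-1 mutant and 1.40 within the pek-1 mutant, each with an SE of 0.15 and past the threshold. Unlike ncr-1, it was no higher in the pmt-2 mutant, where it read 3.95, 3.47 and 3.54. Its signals there and in N2 on vector lay near the array medians, 3.74 to 3.89, and were not shown to be above background. The mutant lay below the RNAi animals by 1.24 for ncr-2 (limma adjusted p = 5.28e-08) and above them by 0.42 for ncr-1 (limma adjusted p = 0.00494). The 2 sterol carriers thus parted between the knockdown and the knockout of the same gene. The difference of response between the ire-1 mutant and N2 was -0.05 (SE 0.21) for ncr-2 and did not pass.

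Over the 10 group means, the genes most like ncr-1 were cpr-3 (r = 0.98), lmp-1 (r = 0.97) and cpz-2 (r = 0.90). For ncr-2 they were lmp-1 (r = 0.66), cpr-3 (r = 0.60) and ncr-1 (r = 0.60). These coefficients describe 10 points that share arrays and normalisation.

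lmp-1 encodes a LAMP-type membrane glycoprotein of lysosomes. It read 10.37, 10.59 and 10.67 in N2 with RNAi and 10.53, 10.78 and 10.53 in the pmt-2 mutant, against 9.26, 9.45 and 9.37 in N2 on vector. Both groups lay wholly above the vector arrays, by 1.18 (SE 0.10) and 1.25 (SE 0.10). It rose by 0.53 with tunicamycin and by 0.41 in the untreated ire-1 mutant, the second call being lost in 4 of 15 alternative settings. Its rise with RNAi within the ire-1 mutant, 0.43, was smaller than in N2 by 0.75 (SE 0.15, limma adjusted p = 0.00157).

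lmp-2, the other LAMP homologue and a dim probe set, went the opposite way. It read 3.77, 3.99 and 3.66 in N2 with RNAi and 4.02, 4.00 and 3.74 with tunicamycin, against 4.29, 4.43 and 4.52 on vector. It fell by 0.61 with RNAi and by 0.49 with tunicamycin, and the arrays did not overlap. The RNAi and tunicamycin signals lay near the medians of those arrays, 3.76 to 3.89, and were not shown to be above background. The size of these falls is therefore not fixed. The tunicamycin call was lost in 6 of 14 alternative settings, which change the variance model, leave out an array or take the authors' own p-values. In the pmt-2 mutant it read 4.48, 4.71 and 5.15, which overlapped the vector arrays, and its rise of 0.37 (SE 0.15, limma adjusted p = 0.0384) was lost in 8 of 13 alternative settings. Among these were the fits without N2 vector array 1, without N2 vector array 2 and without mutant array 3, where lmp-2 differed by 0.31, 0.38 and 0.18.

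**Figure D2:**
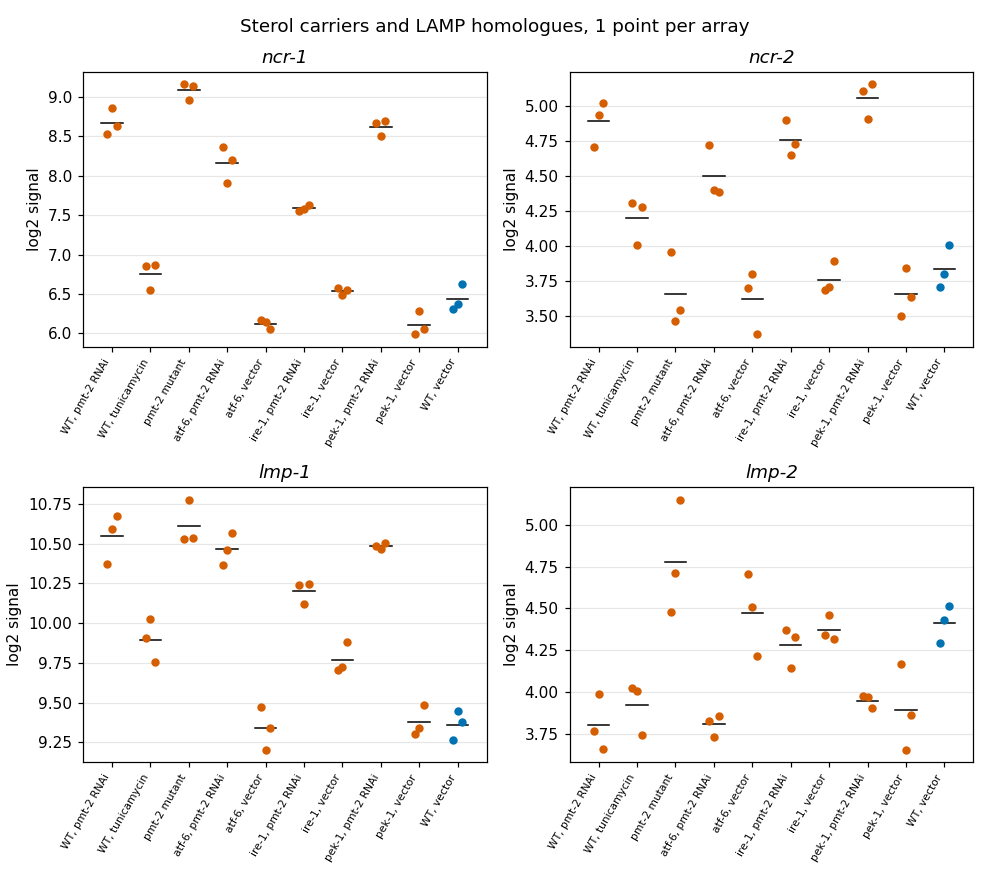
Log2 signal of ncr-1, ncr-2, lmp-1 and lmp-2 on each of the 30 arrays, by group, with WT on vector in blue at the right and the other groups in orange. Lines are group means of 3 arrays and each panel has its own scale. ncr-1 and lmp-1 are high with RNAi and in the pmt-2 mutant, whereas ncr-2 is high with RNAi and not in the pmt-2 mutant.

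Among the cysteine proteases, cpr-3 had the largest change of all 36 genes with RNAi in N2 and in the pmt-2 mutant. cpr-3, of the cathepsin B type (chromosome V, 15296817 to 15298659, minus strand), read 8.71, 9.38 and 8.92 in N2 with RNAi, against 4.86, 5.06 and 5.36 in N2 on vector. It read 6.59, 6.21 and 6.40 with tunicamycin and 9.30, 9.43 and 9.41 in the pmt-2 mutant. All 3 groups lay above the vector arrays without overlap. The rises were 3.91 (15.1-fold) with RNAi, 1.31 (2.47-fold) with tunicamycin and 4.28 (19.5-fold) in the pmt-2 mutant, each with an SE of 0.16 and past the threshold.

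Of all probe sets 15.6% rose and 17.7% fell with RNAi in N2, and 28.4% rose and 30.8% fell in the pmt-2 mutant. Beside the rises of cpr-3, ncr-1 and lmp-1, 8 of 9 neuron markers rose with RNAi in N2 and all 9 rose in the pmt-2 mutant. A summed log2 level, here and below, is the log2 of the sum of unlogged marker signals on an array, so the brightest markers weigh most. It can therefore move against the median of a list. For the neuron markers it was 12.74 to 13.08 with RNAi and 13.98 to 14.03 in the mutant, against 11.84 to 11.88 in N2 on vector. Of 10 sperm markers 5 rose with RNAi and none fell, and in the mutant 7 fell and none rose. The part of neither list in these rises was tested.

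The other cysteine proteases were split in N2 with RNAi. Of the 9, 3 rose and 3 fell, where 15.6% of all probe sets rose and 17.7% fell. cpz-2, a cathepsin Z, rose by 0.85 (SE 0.16), and cpl-1, the cathepsin L that processes yolk and is needed in embryos, rose by 0.27 (SE 0.07). cpr-5 fell by 0.93 (SE 0.10), cpr-1, a protease of the gut, by 0.61 (SE 0.10) and cpz-1, a cathepsin Z with a role in moulting, by 0.57 (SE 0.10). cpr-2, cpr-4 and cpr-6 did not pass.

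Tunicamycin raised cpr-1, which read 10.95, 10.79 and 10.96 against 10.48, 10.25 and 10.30 on vector, a rise of 0.56 (SE 0.10). RNAi and tunicamycin thus moved cpr-1 in opposite directions, and the direct difference of tunicamycin from RNAi was 1.17 (SE 0.10, limma adjusted p = 2.65e-09). cpl-1 was split the other way, lower with tunicamycin by 0.44 (SE 0.07) against vector and by 0.72 against RNAi. cpr-5 fell by 1.18 and cpz-1 by 0.58 with tunicamycin.

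In the pmt-2 mutant 5 of the 9 rose and 3 fell, where 28.4% of all probe sets rose and 30.8% fell. Beside cpr-3, the rises were 1.85 for cpz-2, 1.64 for the dim cpr-2, 0.59 for cpr-4 and 0.33 for cpz-1. In N2 on vector cpr-2 read 2.86, 2.74 and 2.55, under the medians of those arrays, 3.74 to 3.76. These signals were not shown to be above background, so the size of the cpr-2 rise is not fixed. The falls were 1.35 for cpr-5, 0.78 for cpr-1 and 0.68 for cpr-6, while cpl-1 was 0.10 lower (SE 0.07) and did not pass. cpz-1 therefore fell with RNAi and rose in the pmt-2 mutant, with a direct difference of 0.90 (SE 0.10, limma adjusted p = 1.44e-08).

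In the untreated ire-1 mutant most of the lysosomal genes past the threshold were cysteine proteases. Of the 9, 1 was higher and 6 were lower than in N2 on vector, and over all 36 genes 2 were higher and 7 lower, where 6.16% of all probe sets passed (2.98% higher, 3.18% lower). The falls were 1.37 for cpz-1 (SE 0.10, limma adjusted p = 5.34e-10), 1.04 for cpr-1, 0.82 for cpr-4, 0.79 for cpr-5, 0.71 for cpr-6 and 0.66 for cpl-1. cpz-1 read 8.18, 8.16 and 8.16 in the ire-1 mutant, against 9.58, 9.49 and 9.55 in N2. cpr-3 was the gene that was higher, by 1.43 (SE 0.16, limma adjusted p = 1.08e-06), at 6.63, 6.55 and 6.39 in the ire-1 mutant against 4.86, 5.06 and 5.36 in N2. For both genes the arrays of the 2 genotypes did not overlap. asp-3, an aspartyl protease that acts in necrotic cell death, fell by 0.43, lmp-1 rose by 0.41, and none of the 17 V-ATPase genes passed.

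Within the ire-1 mutant, RNAi was set against the same 3 ire-1 vector arrays that gave the low levels above, so the 2 comparisons share arrays and a low vector level favours opposite signs in them. Of the 9 cysteine proteases, 8 rose and 1 fell against the ire-1 mutant on vector, and over all 36 genes 12 rose and 6 fell, where 28.1% of all probe sets passed (14.3% higher, 13.8% lower). cpr-1 read 10.23, 10.20 and 10.11 in the ire-1 mutant with RNAi, against 9.38, 9.19 and 9.34 on vector, a rise of 0.87 (SE 0.10). cpr-4, another cathepsin B, rose by 1.10 (SE 0.19), cpz-2 by 1.00, cpl-1 by 0.62, cpz-1 by 0.59 and cpr-6 by 0.37. cpr-5 rose by 0.27, and the dim cpr-2, with signals under the array medians, fell by 0.47. In N2, by contrast, cpr-1, cpr-5 and cpz-1 fell with RNAi, so these 3 genes passed in opposite directions in the 2 genotypes. The rise of cpr-5 within the ire-1 mutant was lost in 9 of 15 alternative settings and the fall of cpr-2 in 5 of 14, while the rises of cpr-1 and cpz-1 passed in all 15.

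The difference between the RNAi response in the ire-1 mutant and that in N2 passed for 11 of the 36 genes, 7 upward and 4 downward, where 6.25% of all probe sets passed (3.12% higher, 3.14% lower). Among bright probe sets the share was 13.4%, against 20.8% of the 24 bright lysosomal genes. The upward differences were 1.48 (SE 0.15) for cpr-1 and 1.43 (SE 0.27) for cpr-4. They were 1.20 (SE 0.14) for cpr-5 and 1.16 (SE 0.14) for cpz-1, with smaller ones for cpr-6, cpl-1 and the dim asp-2. The downward ones were 3.2 (SE 0.23) for cpr-3, with ncr-1, lmp-1 and cpr-2 beside it. The cpr-2 signals in both genotypes lay between 2.36 and 3.06, under the array medians, and were not shown to be above background. For cpr-3, RNAi gave 7.13, 7.18 and 7.39 in the ire-1 mutant, a rise of 0.71 from a higher vector level, against the rise of 3.91 in N2.

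Beside these differences stand the smaller fall of pmt-2 in the ire-1 mutant, given above, and its vector level, which was 0.50 lower than in N2 (limma adjusted p = 0.00772). The part of the weaker knockdown was not tested. Of 18 measured intestine markers, 4 differed upward and 2 downward in the same contrast, where 3.12% of all probe sets differed upward and 3.14% downward. Their summed log2 level was 13.14 to 13.26 in the ire-1 mutant with RNAi and 13.16 to 13.20 on vector. In N2 it was 13.31 to 13.40 with RNAi and 13.48 to 13.64 on vector. The part of these markers was not tested either. No marker on these arrays reads 0, since RMA gives every probe set a signal. The call was lost in 15 of 20 alternative settings for cpl-1, 13 of 19 for cpr-2, 9 of 19 for asp-2 and 6 of 20 for cpr-6, and the other 7 passed under each one run.

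**Figure D3:**
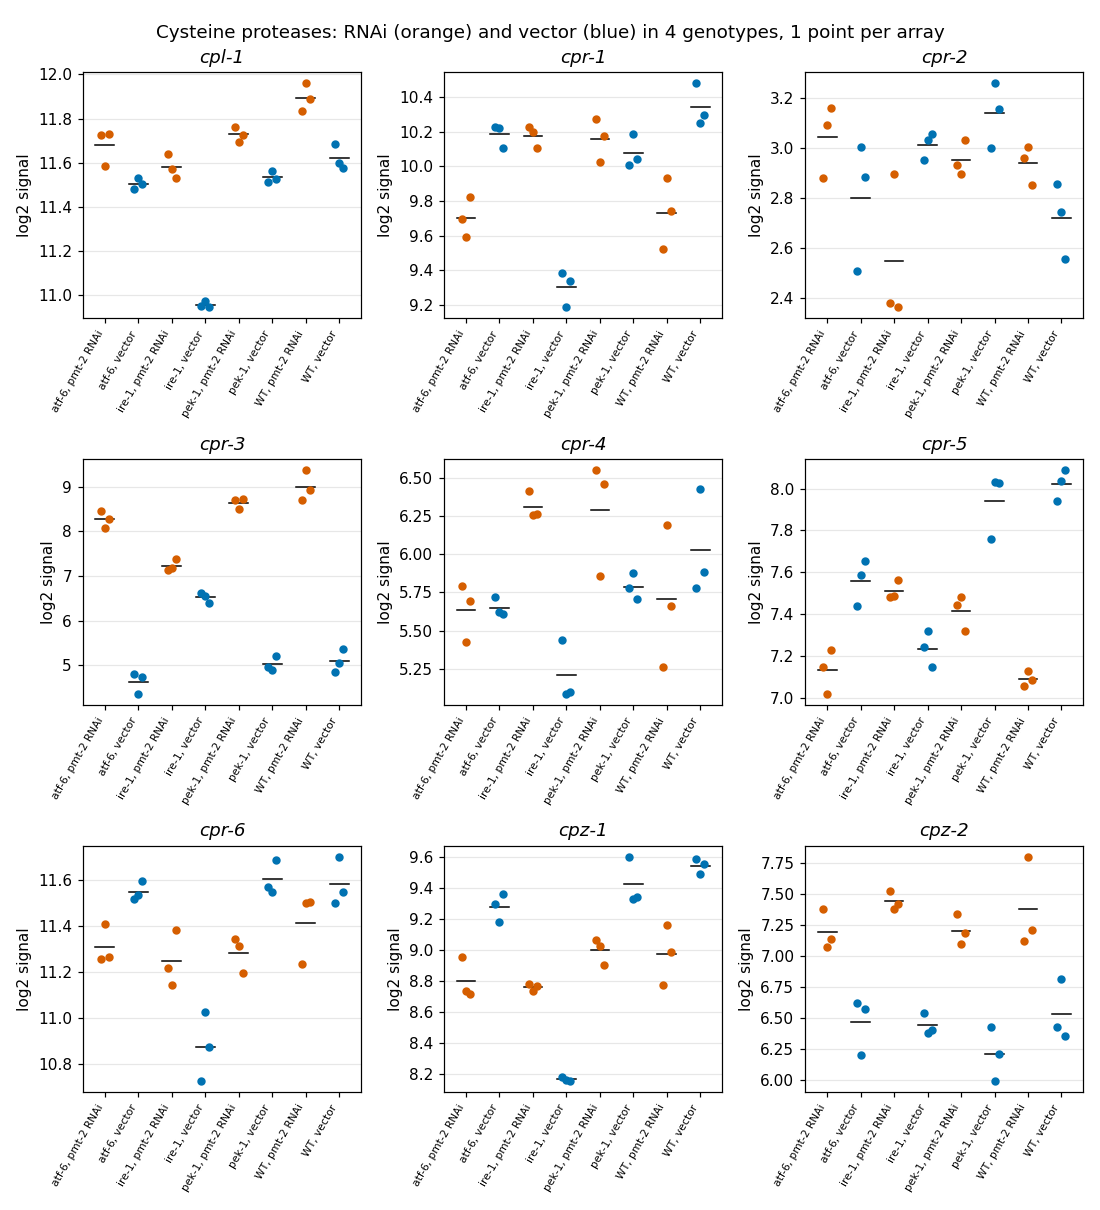
Log2 signal of the 9 cysteine proteases on each array of the atf-6, ire-1, pek-1 and N2 (WT) animals, with pmt-2 RNAi in orange to the left of vector in blue and black lines at the means of 3 arrays. cpr-1, cpr-5 and cpz-1 are lower with RNAi in N2 and higher with RNAi in the ire-1 mutant, and cpr-3 is higher with RNAi in all 4 genotypes, by the smallest step in the ire-1 mutant.

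**Figure D4:**
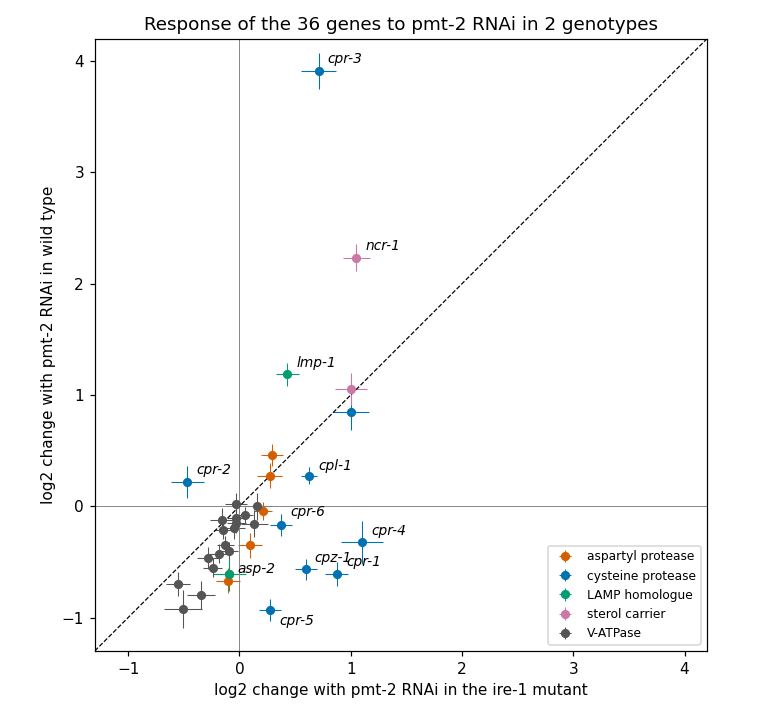
Log2 change with pmt-2 RNAi in the ire-1 mutant (x axis) and in N2 (y axis) for the 36 genes, with SE bars and a dashed line of equal change. The 11 named genes differ between the genotypes past the threshold, and cpr-3 lies farthest above the line.

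Of the 6 aspartyl proteases, 1 rose and 3 fell with RNAi in N2, where 15.6% of all probe sets rose and 17.7% fell. asp-6 rose by 0.46 (SE 0.10), while asp-1, a protease of the intestine, fell by 0.61 (SE 0.13), asp-2 by 0.67 (SE 0.11) and asp-5 by 0.35 (SE 0.11), a call that was lost in 5 of 15 alternative settings. The asp-1 arrays read 8.79, 9.45 and 8.92 with RNAi, against 9.63, 9.61 and 9.73 on vector, so the groups did not overlap although the second RNAi array lay near the vector arrays. asp-2 was dim, and its RNAi signals, 3.92, 4.30 and 4.12, lay near the medians of those arrays, 3.77 to 3.89. They were not shown to be above background, so the size of that fall is not fixed. Tunicamycin moved asp-6 up by 0.59, asp-1 down by 0.44 and asp-2 down by 0.59.

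asp-4, the other aspartyl protease of necrotic cell death, was higher in the pmt-2 mutant. It read 9.96, 10.05 and 10.16 there, against 9.21, 9.40 and 9.12 in N2 on vector, a rise of 0.81 (SE 0.11, limma adjusted p = 5.05e-07). Its difference with RNAi in N2, 0.28 (SE 0.11), did not pass, and the mutant exceeded the RNAi animals by 0.53 (limma adjusted p = 0.000194). asp-6 rose by 0.86 in the mutant. asp-2 read 4.24, 4.25 and 4.05 there, against 4.85, 4.75 and 4.75 in N2 on vector, and fell by 0.60 (SE 0.11). asp-1 read 9.11, 9.44 and 9.27, against 9.63, 9.61 and 9.73, and fell by 0.38 (SE 0.13, limma adjusted p = 0.0108). Neither gene's arrays overlapped, while asp-3 did not pass with RNAi, with tunicamycin or in the mutant.

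The V-ATPase genes that carry a vha symbol fell together with tunicamycin. Of 17, 15 fell and none rose, all 17 differences were below 0, and the median was -0.77, against a median of 0.02 over all probe sets and -0.00 over bright ones. Of all probe sets, 8.37% fell. Both sectors took part, with 6 of 7 V0 genes and 8 of 9 V1 genes lower. The subunits vha-7 and vha-18 did not pass. The call was lost in 4 of 15 alternative settings for vha-9, 4 for vha-17, 2 for vha-1 and 1 for vha-6. The other falls passed in all 15.

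vha-5, a V0 subunit a of the excretory cell and hypodermis, read 6.43, 6.52 and 6.51 with tunicamycin, against 7.84, 8.15 and 7.95 on vector, a fall of 1.49 (SE 0.12, limma adjusted p = 1.02e-09). vha-12, subunit B of V1, read 9.28, 9.66 and 9.41 with tunicamycin, against 10.66, 10.85 and 10.89 on vector, a fall of 1.35 (SE 0.12). vha-11, subunit C of V1, read 10.30, 10.20 and 10.40 with tunicamycin, against 11.48, 11.53 and 11.52 on vector, a fall of 1.21 (SE 0.09). In each of these genes all tunicamycin arrays lay below all vector arrays. The catalytic subunit A, vha-13, fell by 0.85, the stalk subunit E, vha-8, by 0.82, and vha-19, an accessory protein, by 0.98.

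Markers of several tissues moved with tunicamycin too, where 8.24% of all probe sets rose and 8.37% fell. Of 18 intestine markers 2 rose and 9 fell, with a median of -0.53 and a summed log2 level of 13.01 to 13.07, against 13.48 to 13.64 on vector. Of 10 excretory cell markers 2 rose and 2 fell, and their summed level was 9.43 to 9.52 with tunicamycin, against 9.64 to 9.77 on vector. Of 7 hypodermis markers 3 fell and none rose, with a median of -0.81 and a summed level of 11.11 to 11.27, against 11.71 to 11.85 on vector. Of 7 muscle markers 4 fell and none rose, with a median of -0.58 and a summed level of 11.92 to 12.09, against 12.29 to 12.66 on vector. Their part in the V-ATPase result was not tested.

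RNAi lowered 9 of the 17 V-ATPase genes and raised none, with a median of -0.21, against -0.09 over all probe sets and -0.13 over bright ones. Of all probe sets 15.6% rose and 17.7% fell. Of the 3175 bright probe sets 665 rose and 1208 fell, while of the 14 bright V-ATPase genes 0 rose and 7 fell. In either direction 59.0% of bright probe sets passed, against 50.0% of these 14 genes. The median difference over the 17 genes from the N2 vector mean was -0.35, -0.09 and -0.27 on the 3 RNAi arrays. The falls were 0.92 for vha-18 (a subunit H of V1), 0.80 for vha-6, the subunit a of the apical membrane of the intestine, 0.70 for vha-7 (another subunit a), 0.55 for vha-11, 0.46 for vha-14 (subunit D), 0.42 for vha-4, 0.40 for vha-19, 0.35 for vha-8 and 0.21 for vha-16, whose call was lost in 9 of 15 alternative settings. The calls of vha-8 and vha-14 were each lost in 2 of 15, and those of vha-6, vha-7, vha-18 and vha-19 in 1. Those of vha-4 and vha-11 passed in all 15. vha-6 read 8.72, 9.41 and 8.93 with RNAi, against 9.71, 9.84 and 9.92 on vector, with no overlap. vha-6, vha-7, vha-11, vha-14 and vha-18 fell with RNAi in all 4 genotypes. Within the ire-1 mutant only the fall of vha-7 passed in all 15 alternative settings. There the call was lost in 10 of them for vha-14, 7 for vha-6, 7 for vha-11 and 5 for vha-18.

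Tunicamycin and RNAi thus differed by subunit. Set directly against RNAi, tunicamycin gave lower levels of 12 V-ATPase genes and higher levels of 2, where 39.7% of all probe sets passed (22.2% higher, 17.5% lower). vha-12, at 0.00 with RNAi, was 1.35 lower with tunicamycin than with RNAi (limma adjusted p = 2.75e-09), and vha-5 was 1.34 lower. vha-18 and vha-7 were the 2 that were higher, by 0.82 and 0.41.

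**Figure D5:**
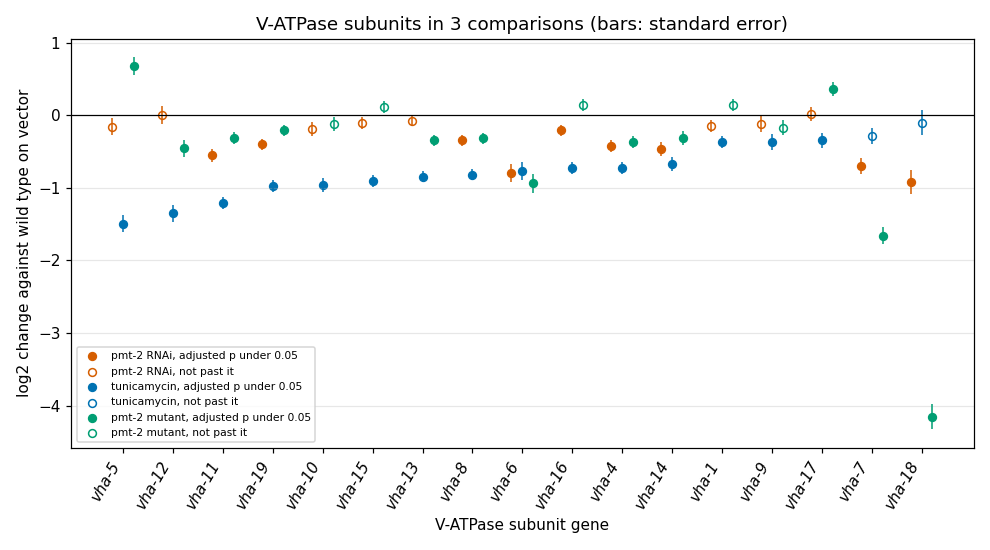
Log2 change from N2 (WT) on vector of 17 V-ATPase genes with pmt-2 RNAi (orange), with tunicamycin (blue) and in the pmt-2 mutant (green). Bars are SE, filled points passed an adjusted p of 0.05, and genes are ordered by the change with tunicamycin. All 17 tunicamycin points lie below 0, and vha-18 in the mutant, whose signals lay under the array medians, is drawn at -4.15.

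In the pmt-2 mutant 2 of the 17 rose and 10 fell, where 28.4% of all probe sets rose and 30.8% fell. The median was -0.31, against -0.13 over all probe sets and -0.50 over bright ones. Of the 14 bright V-ATPase genes 64.3% passed, a lower share than that of bright probe sets given above. vha-18 (chromosome V, 8411756 to 8413469, minus strand) read 3.27, 3.58 and 2.77 in the mutant, against 7.48, 7.37 and 7.23 in N2 on vector, a difference of -4.15 (SE 0.17, limma adjusted p = 6.02e-17). The mutant signals lay under the medians of those arrays, 3.87 to 3.89, and were not shown to be above background, so the size of the vha-18 fall is not fixed by these values. vha-7 read 6.68, 6.76 and 6.65 in the mutant, against 8.32, 8.34 and 8.40 in N2, a fall of 1.66 (SE 0.11). Neither gene's arrays overlapped. vha-5 rose by 0.67, at 8.60, 8.76 and 8.60 in the mutant, and vha-17, a small V0 subunit, rose by 0.36.

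Tissue markers differed widely in the mutant, where 28.4% of all probe sets rose and 30.8% fell. All 12 oocyte and eggshell markers fell, with a median of -6.36 and a summed log2 level of 8.36 to 8.58, against 14.95 to 15.03 in N2 on vector. With RNAi 7 of these 12 fell, where 17.7% of all probe sets fell, and the summed level was 14.2 to 14.9. Of 10 excretory cell markers 8 rose and 2 fell in the mutant, with a summed level of 10.8 to 10.9, against 9.64 to 9.77 in N2. Of 7 hypodermis markers 3 rose and 3 fell, with a median of 0.73. Their summed level was 10.83 to 10.88, against 11.71 to 11.85 in N2. Of 18 intestine markers 8 rose and 4 fell, with a median of 0.31. Their summed level was 12.61 to 12.68, against 13.48 to 13.64 in N2. Of 7 muscle markers 1 rose and 2 fell. The neuron and sperm markers of the mutant are given above, with medians of 2.80 and -1.20. The part of these tissue markers in the vha-18, vha-7 and vha-5 results, and in the other results on the mutant, was not tested. Stage and germline content of the mutant animals were not compared with those of N2 or of the RNAi animals.

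Loss of atf-6 or pek-1 alone changed none of the 36 genes past the threshold in limma, where 0.194% of all probe sets passed in the atf-6 mutant (0.081% higher, 0.113% lower) and 0.113% in the pek-1 mutant (0.0705% higher, 0.0423% lower). At an unadjusted p under 0.05 there were 5 genes in the atf-6 mutant and 4 in the pek-1 mutant. The count in the atf-6 mutant was 1 (cpr-5) under 5 of the alternative settings, and in the pek-1 mutant it was 0 under each one run. RNAi within the atf-6 mutant raised 7 and lowered 19, where 29.9% of all probe sets passed (13.8% higher, 16.1% lower). Within the pek-1 mutant it raised 8 and lowered 13, where 43.9% passed (18.7% higher, 25.2% lower). asp-6, cpr-3, cpz-2, lmp-1, ncr-1 and ncr-2 rose with RNAi in all 4 genotypes. The call of asp-6 was lost in 6 of 15 alternative settings within the atf-6 mutant, 5 within the ire-1 mutant, 6 within the pek-1 mutant and 2 in N2.

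The RNAi response in the atf-6 mutant differed from that in N2 for none of the 36 genes in limma, where 0.0282% of all probe sets passed, and 2 genes, asp-2 and cpr-5, had an unadjusted p under 0.05. In the pek-1 mutant 1 gene differed, cpr-1, which differed upward, where 1.24% of all probe sets passed (1.02% higher, 0.225% lower). It read 10.27, 10.03 and 10.18 with RNAi, against 10.01, 10.19 and 10.04 on vector, arrays that overlap, and its response differed from the fall in N2 by 0.69 (SE 0.15, limma adjusted p = 0.0166). That call was lost when N2 RNAi array 1, pek-1 RNAi array 1 or pek-1 RNAi array 3 was left out, and with the variance of the compared groups alone.

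Other genes of the lysosome gave a wider frame. Of 58 measured, 13 rose and 23 fell with RNAi in N2, 12 rose and 15 fell with tunicamycin, and 19 rose and 24 fell in the pmt-2 mutant. Of all probe sets 15.6% rose and 17.7% fell with RNAi, 8.24% rose and 8.37% fell with tunicamycin, and 28.4% rose and 30.8% fell in the mutant. lgmn-1, a legumain-type protease, rose by 3.58 with RNAi, 2.84 with tunicamycin and 3.92 in the mutant. lipl-3, a lysosomal lipase, rose by 1.62 with RNAi and 1.58 with tunicamycin. lipl-2, another lipase, rose by 1.72 with tunicamycin, and sul-2, a sulfatase, rose by 3.78 in the mutant. asm-3, an acid sphingomyelinase, fell by 4.02 with RNAi, fell by 4.87 in the mutant and fell by 0.67 with tunicamycin. lipl-1 fell by 1.89 with RNAi, and cln-3.1, a homologue of the CLN3 protein, fell by 1.74 with RNAi, fell by 1.88 with tunicamycin and fell by 2.25 in the mutant. pho-1, an acid phosphatase of the intestine, fell by 2.86 with tunicamycin, pcp-2 fell by 2.27 with tunicamycin, and gba-4, a glucocerebrosidase homologue, fell by 3.93 in the mutant.

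Among regulators, hlh-30, the homologue of the lysosomal regulator TFEB, is also counted among the 58 genes above. It rose by 1.28 with RNAi and 2.53 in the mutant, while its difference with tunicamycin was -0.08 (SE 0.14) and did not pass. RNAi raised hlh-30 by 1.65 within the atf-6 mutant, 1.10 within the ire-1 mutant and 1.66 within the pek-1 mutant. elt-2, a GATA factor that controls intestinal genes, rose by 0.95 with RNAi in N2, 0.42 with tunicamycin and 1.37 in the pmt-2 mutant.

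In the untreated ire-1 mutant 2 of the 58 rose and 13 fell, where 2.98% of all probe sets rose and 3.18% fell. Among these genes aman-1, an alpha-mannosidase, fell by 3.35, asm-3 fell by 2.23 and gba-4 fell by 1.30. lgmn-1 and sul-2 were the 2 that rose, by 1.2 and 0.65. The RNAi response in the ire-1 mutant differed from N2 upward for 14 and downward for 1, where 3.12% of all probe sets differed upward and 3.14% downward. The upward differences were led by asm-3 at 2.64, aagr-1, an acid alpha-glucosidase, at 1.52 and cln-3.1 at 1.42. The downward one was lgmn-1, at -2.15 (SE 0.15).

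Another 15 genes carry an asp, cpr or vha symbol in RefSeq's current annotation (WBcel235) and not in the deposited tables, and they were not counted among the 36. In each of RNAi in N2, tunicamycin and the pmt-2 mutant, 1 of these rose and 7 fell. Of all probe sets 33.3% passed with RNAi (15.6% higher, 17.7% lower) and 16.6% with tunicamycin (8.24% higher, 8.37% lower). In the mutant 59.2% passed (28.4% higher, 30.8% lower). Several of the 15 were dim, with mean log2 signals down to 1.98 (asp-19), under the array medians of 3.74 to 3.89. Signals at that level were not shown to be above background. asp-17, vha-20 and the rows for subunit c were singled out after their values were seen. asp-17 rose by 4.05 (SE 0.19) with RNAi in N2 and was 2.28 higher in the untreated ire-1 mutant, and its RNAi response in that mutant was smaller than in N2 by 3.75 (limma adjusted p = 1.19e-09). vha-20, a homologue of the prorenin receptor, fell by 1.07 with tunicamycin. The 2 probe sets that name both vha-2 and vha-3, which encode subunit c, fell by 0.39 and 1.03 with tunicamycin, and they cannot be assigned to either gene.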

How the data were processed

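Total RNA of 30 samples was measured on Affymetrix arrays. The deposited value table holds log2 signals after RMA, per the submitters' processing notes, and the authors' 12 tables hold group means (Tukey biweight), SDs on the log2 scale and FDR p-values, per the file headers. Software versions and the genome build are not given in the sources used here. Of 29317 rows, the 930 absent from the authors' tables were left out. Of the remaining 28387 probe sets, 25930 name 1 gene, 651 several and 1806 none. Samples were grouped by title, 3 arrays in each of 10 groups. A model of 10 group means was fitted in limma 3.58.1 (R 4.3.3) to all probe sets, with 20 residual degrees of freedom, and p-values were adjusted by Benjamini-Hochberg over all probe sets with a threshold of 0.05. Changes and SEs are on the log2 scale. Arrays have no read depth, and their number limits the precision.

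Genes were taken by symbol and all 36 enter every count. The genes and lists were chosen with earlier results of these data known. Genes named in the text were drawn from these: per comparison and role, up to 4 rises and 4 falls of the largest size among those past the threshold, each ncr and lmp gene and cpl-1, for differences of response the 5 smallest adjusted p, from the other lysosomal genes the 3 largest in each direction, and the targeted genes, hlh-30 and elt-2. Further members are given where they complete a role. On simulated data for RNAi in N2 (28387 probe sets, 200 of them changed), 40.9% of 1.5-fold and 81.5% of 2-fold changes were recovered. Of the simulated calls 6.45% were false. In the data 9467 probe sets passed, so these shares need not hold there. The main fit did not pair arrays by replicate number. Deviations of same-numbered arrays from their group means correlated at -0.08 to 0.27, with 0.15, 0.27 and 0.01 for RNAi in N2. Pairing is therefore not excluded there. Alternatives covered variance, weights, centring, filters, a replicate block, the authors' FDR p-values and leaving out each array. Promoter motifs were not searched.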

Additional observations from a re-analysis of the deposited data

Results flagged for a closer look

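The RNAi response differed between the ire-1 mutant and N2 by a test of the difference itself for 11 genes, where 6.25% of all probe sets passed. The difference was upward for cpr-1 (1.48), cpr-4 (1.43), cpr-5 (1.20), cpz-1 (1.16), the dim asp-2 (0.56), cpr-6 (0.54) and cpl-1 (0.35). It was downward for cpr-3 (-3.2), ncr-1 (-1.18), lmp-1 (-0.75) and cpr-2 (-0.69), whose signals lay under the array medians. The call was lost in 15 of 20 alternative settings for cpl-1, 13 of 19 for cpr-2, 9 of 19 for asp-2 and 6 of 20 for cpr-6. The fall of pmt-2 itself was 2.18 in the ire-1 mutant and 3.51 in N2, and the part of that gap was not tested.

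In the pek-1 mutant the response of cpr-1 differed from that in N2 by 0.69, where pmt-2 fell by 2.90.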

How the results depend on the processing

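No count or gene changed direction under any alternative run. Counts of the 36 genes that moved by over 1.5 times were these. With RNAi in N2 the count of 23 was 15 with the variance of the compared groups alone and 10 by the authors' FDR p-values. In the atf-6 mutant on vector the count of 0 became 1 (cpr-5) with an intensity trend and robust prior, with array weights, with centring, without probe sets of mean under 5, and with the statistic rebuilt from deposited means and SDs. In the ire-1 mutant on vector 9 became 4 by the authors' FDR p-values. For the difference of RNAi response, 11 became 7 in the ire-1 mutant and 1 became 0 in the pek-1 mutant with the variance of the compared groups alone, and array weights gave 18 and 4. The cause was not tested.

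Leaving out 1 array gave 21 to 24 genes for RNAi in N2, 22 to 25 for tunicamycin, 25 to 27 for the pmt-2 mutant, 8 to 9 for the ire-1 mutant, 0 for the atf-6 and the pek-1 mutant, 22 to 24, 11 to 15 and 17 to 20 for RNAi within the atf-6, ire-1 and pek-1 mutants, 0, 7 to 14 and 0 to 4 for their differences from N2, 22 to 25 for tunicamycin against RNAi and 21 to 28 for the mutant against RNAi. The 11 for RNAi within the ire-1 mutant came without its vector array 3 or its RNAi array 1, where 18 passed with all arrays. The 7 came without N2 RNAi array 1. With the replicate block the counts were 23 for RNAi in N2, 16 for RNAi within the ire-1 mutant and 10 for its difference from N2, and the other counts were equal to those without it. Over all probe sets, the authors' FDR p-values gave 2860 calls against 9467 for RNAi in N2, 1710 against 4715 for tunicamycin, 6 against 55, 299 against 1748 and 0 against 32 for the atf-6, ire-1 and pek-1 mutants, and 5323 against 8478 for RNAi within the atf-6 mutant. The variance of the compared groups alone gave 5634, 2970, 5, 834 and 5 for the first 5 of these, 7488 against 11279 for tunicamycin against RNAi, and 0 against 8, 1096 against 1775 and 36 against 353 for the differences of response in the atf-6, ire-1 and pek-1 mutants. Array weights gave 62, 3863 and 2115 for these differences and 100 for the atf-6 mutant. The rebuilt statistic gave 212 for the atf-6 mutant, 93 for the pek-1 mutant and 13 and 846 for the atf-6 and pek-1 differences. Leaving out dim probe sets tests fewer of them and gave 9035 against 16807 in the pmt-2 mutant, 8400 against 14616 for that mutant against RNAi, 7990 against 12460 for RNAi within the pek-1 mutant, 108 for the atf-6 mutant and 13 for its difference, for which leaving out the pmt-2 mutant arrays gave 5. Centring each array moved the split of higher and lower to 5 and 19 for RNAi within the pek-1 mutant and to 9 and 3 for the ire-1 difference. It shifted all changes in the pmt-2 mutant by -0.12. Choosing the lowest row per gene was not run, since each gene had 1 row.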
